A study of Drosophila melanogaster with 7 samples.

Results

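The epithelial junction and polarity genes described here are 10 genes, Ssk, mesh, Tsp2A, Fas3, cora, shg, arm, dlg1, scrib and l(2)gl, taken by their symbols from the 17481 genes of the deposited expression table. They encode proteins of the smooth septate junction, the adherens junction and the basolateral polarity module of gut epithelial cells. All 10 were found, and all 10 were among the 8421 genes entered into the test, which needed 1 FPKM or more in 3 or more of the 7 libraries. FPKM scales fragments by transcript length and by the library's mapped fragments, which puts the levels of different genes on 1 scale. RNA was amplified before sequencing, and the effect of this on comparisons between genes was not tested.

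RNA was sequenced from GFP-labelled cells sorted from the midgut of adult Drosophila melanogaster at day 2 of the adult stage, with about 10000 cells per sample. There were 3 wild-type libraries (Ctrl) and 4 libraries from flies with overexpression of Sc (ScOE), the product of scute, a proneural transcription factor that acts in the formation of enteroendocrine cells. The labels call the sorted cells intestinal stem cells, while the series title calls them intestinal progenitor cells. The driver, the alleles and the marker behind the GFP are not given in the sources used here, nor whether libraries came from separate flies, so p-values measure the spread between these libraries, which may be technical.

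Septate junctions seal the space between neighbouring epithelial cells. In the fly midgut they are of the smooth type, which is built from the membrane proteins Ssk, Mesh, Tsp2A and Hoka, whereas ectodermal epithelia carry the pleated type with a different set of proteins. Adherens junctions hold cells together through E-cadherin, encoded by shg, and its intracellular partner beta-catenin, encoded by arm. The proteins of dlg1, scrib and l(2)gl mark the basolateral membrane and oppose the apical Crumbs and Par complexes.

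Summed FPKM was 1925000 to 2614300 in Ctrl and 1059300 to 1382500 in ScOE, and a single non-coding RNA, CR40469, held 12.4% to 29.5% of a library's sum. FPKM keeps no read numbers, but the step between the lowest values gave relative depths, which relative to ScOE 3 were 0.448 to 0.602 for Ctrl and 0.857 to 1.04 for the other ScOE libraries. These depths are estimates, each the most common ratio among genes with low values. Of those genes 24.9% to 28.9% had a ratio within 1% of it, and any scaling between libraries would be part of it. The overexpressed gene sc was at 0.886 to 2.44 FPKM in Ctrl and 66.0 to 190 FPKM in ScOE. The progenitor marker esg was at 230 to 362 FPKM in Ctrl and 213 to 254 FPKM in ScOE, and it did not pass. It is 1 of 8 progenitor markers, of which 1 rose, 2 fell and 5 did not pass in limma. Over all tested genes 17.6% were called higher and 21.3% lower. The marker that rose was spdo, with a log2 fold change of 2.58. Those that fell were Sox21a and Sox100B, at -1.31 and -1.59. Of all tested genes 3280 changed in limma, 45.2% of them upward, and that share was 60.5% with upper quartile scaling and 94.1% with equal FPKM totals. Over all tested genes the median log2 fold change was -0.08 at the deposited scale, 0.68 with equal FPKM totals and -0.05 to 0.08 with the other 3 scalings.

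The smooth septate junction genes Ssk and Tsp2A, the adhesion gene Fas3 and the polarity gene scrib were higher in ScOE, while mesh, cora, shg, arm, dlg1 and l(2)gl did not pass. Fas3 rose 21.2-fold, Ssk 4.70-fold, Tsp2A 3.60-fold and scrib 1.55-fold in mean FPKM. The mean of mesh was 2.96-fold higher in ScOE, but the Ctrl libraries differed so widely that the gene did not pass. Higher levels in ScOE were thus called for 4 of 10 members, or 40.0%, where 17.6% of all tested genes were called higher. No member was called lower, against 21.3% of all tested genes, and 6 did not pass. The median log2 fold change was 0.41 over the members and -0.08 over all tested genes. In the same 4 genes the ScOE libraries all lay above the Ctrl libraries, a pattern held by 20.3% of all tested genes. These calls are from limma on log2(FPKM + 1), at an adjusted p under 0.05 over all tested genes. Since each library pools many cells, fewer or more cells of a type and less or more RNA per cell cannot be told apart for any gene below.

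**Figure D1:**
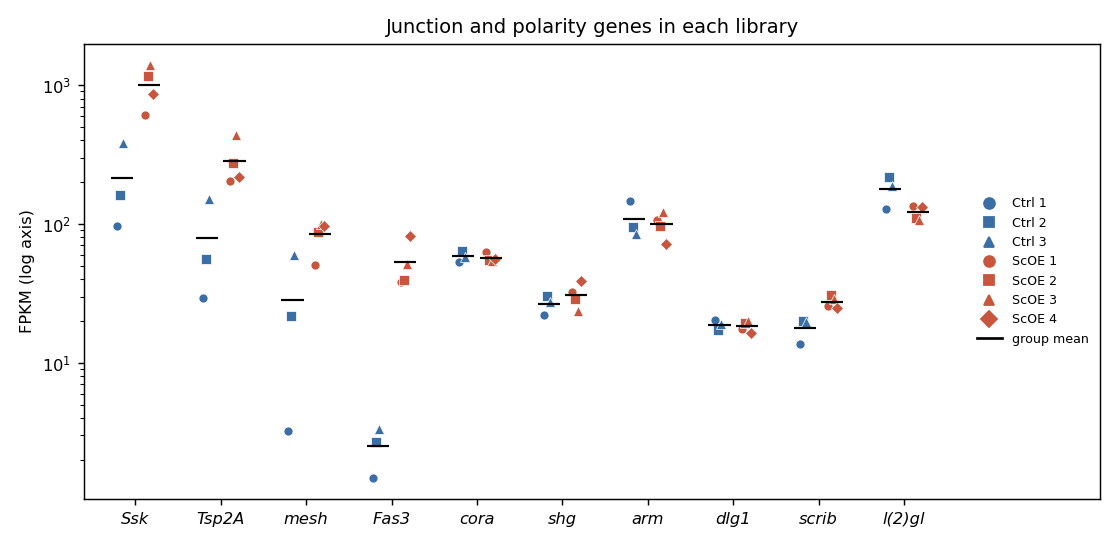
FPKM of the 10 junction and polarity genes (log axis) in each of the 3 Ctrl and 4 ScOE libraries, with points shaped by replicate number and black lines at the group means. Ssk, Tsp2A, Fas3 and scrib have all ScOE points above all Ctrl points, and mesh has a Ctrl range from 3.20 to 60.3 FPKM that meets the ScOE range.

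Ssk encodes a small membrane protein with several membrane spans that the other smooth septate junction proteins need for their localisation. The gene (FBgn0036945) lies on chromosome 3L of BDGP6 from 20188522 to 20189779 on the plus strand. Its span overlaps that of CG42674 without shared exon sequence. Ssk was at 96.9, 163 and 385 FPKM in Ctrl 1, 2 and 3. In ScOE 1, 2, 3 and 4 it was at 611, 1157, 1404 and 869 FPKM. The lowest ScOE library stood above the highest Ctrl library, and both groups were spread widely. On the scale of log2(FPKM + 1) the difference between groups, or log2 fold change, was 2.39 ± 0.49 (SE, n = 3 and 4; adjusted p = 0.00762 in limma). Ssk was the most abundant of the 10 genes in both groups.

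Tsp2A encodes a tetraspanin of the same junction (FBgn0024361, BDGP6 chromosome X, 1346553 to 1348143, plus strand). Its span overlaps that of MTPAP, again without shared exon sequence. Its level was 29.4, 55.7 and 151 FPKM in Ctrl 1, 2 and 3. It was 203, 275, 438 and 217 FPKM in ScOE 1 to 4. The groups did not overlap, and Ctrl 3 and ScOE 3 were the highest libraries of their groups, as they were for Ssk. It rose by a log2 fold change of 2.08 ± 0.54 (adjusted p = 0.0198 in limma). The call was lost without Ctrl 2 (log2 2.00, adjusted p = 0.0636 in limma) and without ScOE 3 (log2 1.85, adjusted p = 0.0522 in limma).

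The remaining junction member, mesh, encodes a large single-pass membrane protein (FBgn0051004, BDGP6 chromosome 3R, 31178389 to 31195762, minus strand). Its level was 3.20, 21.8 and 60.3 FPKM in Ctrl 1, 2 and 3, an 18.8-fold range. It was 50.5, 88.2, 100 and 96.9 FPKM in ScOE 1 to 4, a 1.99-fold range. Only Ctrl 3 reached the ScOE range, where it stood above ScOE 1 and below the other 3 libraries. The spread of mesh among Ctrl libraries, an SD of 1.95 on the log2 scale, was larger than that of 97.7% of tested genes. Its log2 fold change of 2.19 ± 0.82 did not pass (95% interval 0.26 to 4.11 before adjustment, adjusted p = 0.072 in limma). It was 1.14 without Ctrl 1 (adjusted p = 0.0942 in limma) and 3.07 without Ctrl 3, where it passed (adjusted p = 0.0146 in limma). It also passed with library weights (log2 1.84, adjusted p = 0.0076 in limma).

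A further component of the same junction is hoka, which the table lists as CG13704 and which came from a list of other junction genes rather than from the 10 members. It was at 73.2, 118 and 260 FPKM in Ctrl 1, 2 and 3. It was at 515, 662, 952 and 679 FPKM in ScOE 1 to 4. The order of the Ctrl libraries was that of Ssk, Tsp2A and mesh, with Ctrl 1 lowest and Ctrl 3 highest, and the groups did not overlap. Its log2 fold change was 2.38 ± 0.42 (adjusted p = 0.00433 in limma), close in size to those of Ssk and Tsp2A.

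Markers of other gut cell types moved across the same libraries, and their part in the smooth septate junction values was not tested. Of 10 enteroendocrine markers 9 (90.0%) rose and 1 did not pass, where 17.6% of all tested genes were called higher. Their summed level was 86.4 to 959 FPKM in Ctrl and 2737 to 8092 FPKM in ScOE, with Ctrl 1 lowest in Ctrl and ScOE 1 lowest and ScOE 3 highest in ScOE. Of 12 enterocyte markers none rose, 5 (41.7%) fell and 7 did not pass, where 21.3% of all tested genes were called lower. None of the 12 was at 0 in any library. Their summed level was 575, 4661 and 16642 FPKM in Ctrl 1, 2 and 3, and 231, 3205, 2387 and 8192 FPKM in ScOE 1 to 4, so that the groups overlapped. The enterocyte transcription factor gene nub was at 1.02, 6.01 and 15.0 FPKM in Ctrl and at 0.288, 4.73, 2.16 and 8.80 FPKM in ScOE. The library with the lowest smooth septate junction values in each group, Ctrl 1 and ScOE 1, was also lowest for the enterocyte and the enteroendocrine sums. The enterocyte sum is unevenly made up: the digestive enzyme genes alphaTry and betaTry held 21.6% to 91.5% of it. Of its 12 genes 9 were lowest in Ctrl 1 within Ctrl and 8 in ScOE 1 within ScOE, while Myo31DF and LManII were highest in Ctrl 1 within Ctrl. In ScOE the library highest for Ssk, Tsp2A, hoka and mesh was ScOE 3, which was highest for the enteroendocrine sum and below ScOE 2 and ScOE 4 for the enterocyte sum. The largest parts of its enteroendocrine sum were AstC, CCHa2, CCHa1 and NPF, at 2535, 1954, 1474 and 1310 FPKM. Within ScOE the marker pros was lowest in ScOE 3, at 43.1 FPKM against 45.4, 49.6 and 60.9 FPKM in ScOE 1, 2 and 4. Each other enteroendocrine marker was highest in ScOE 3. Without both libraries numbered 1, a setting chosen after the values were seen, the log2 fold change was 2.16 for Ssk (adjusted p = 0.0132 in limma), 1.68 for Tsp2A (0.0477) and 1.36 for mesh (0.0511, not passed).

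**Figure D2:**
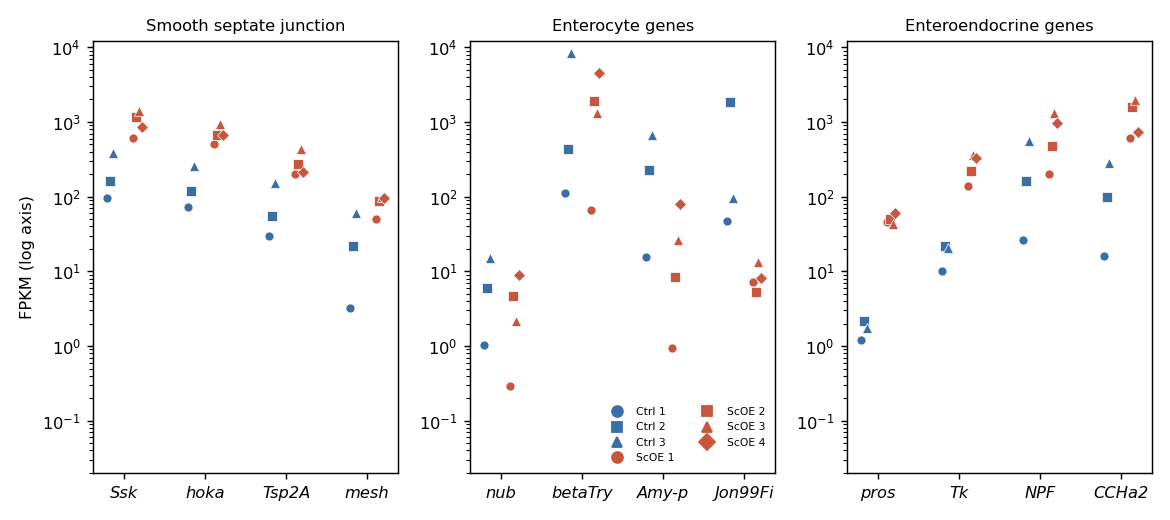
FPKM (log axis, same range in all panels) of 4 smooth septate junction genes, 4 enterocyte genes and 4 enteroendocrine genes in each library, with points shaped by replicate number. Ctrl 1 is the lowest Ctrl library in every gene shown, while Myo31DF and LManII of the enterocyte list, not shown, are highest in Ctrl 1 within Ctrl. The enterocyte genes nub, betaTry and Amy-p overlap between the groups, and Jon99Fi does not and is lower in ScOE. Ssk, hoka and Tsp2A do not overlap and are higher in ScOE.

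Apart from the pseudocount, the ratio of 2 genes within a library is free of any scaling between libraries. The ratio of Tsp2A to Ssk lay within a narrow range in all 7 libraries, at 0.303, 0.342 and 0.392 in Ctrl and 0.333, 0.238, 0.312 and 0.250 in ScOE. Its difference between groups was -0.31 on the log2 scale (exact two-sided permutation p = 0.171 over 35 splits, adjusted p = 0.3 over 7 pairs). The ratio of mesh to Ssk was 0.0330 in Ctrl 1 against 0.134 and 0.156 in Ctrl 2 and 3, and 0.0714 to 0.111 in ScOE. That of mesh to Tsp2A was 0.109 in Ctrl 1 against 0.391 and 0.399 in the other Ctrl libraries, and 0.229 to 0.446 in ScOE. Ctrl 1 therefore held less mesh RNA relative to its junction partners than any other library. Neither ratio differed between the groups beyond the spread (exact permutation p = 0.743 and 0.857).

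Fas3 encodes Fasciclin 3, a homophilic adhesion molecule of the immunoglobulin family that is found at lateral cell contacts (FBgn0000636, BDGP6 chromosome 2L, 18320102 to 18393441, plus strand). Its level was 1.47, 2.68 and 3.33 FPKM in Ctrl 1, 2 and 3. It was 38.0, 39.6, 51.5 and 82.0 FPKM in ScOE 1 to 4. The lowest ScOE library stood 11.4-fold above the highest Ctrl library. Fas3 rose by a log2 fold change of 3.91 ± 0.31 (adjusted p = 0.000151 in limma), higher than that of 99.4% of tested genes. Fas3 went from the least abundant of the 10 genes in Ctrl to the seventh in ScOE, or from the 15.5th to the 80.4th percentile of tested genes. The call held under all 19 alternatives, with log2 fold changes of 2.89 to 4.61.

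Fas3 is also known as a marker of the gut's visceral muscle, so muscle genes were read beside it. Of 8 muscle markers 6 were below the filter and only 2 were tested. Of these 2 none rose, 1 fell and 1 did not pass, where 17.6% of all tested genes were called higher and 21.3% lower. The 1 that fell, Tm1, is also expressed outside muscle, and the other 7 summed to 1.07 to 9.66 FPKM in Ctrl and to 1.36, 1.72, 148 and 0.964 FPKM in ScOE 1 to 4. ScOE 3 was the library with the highest muscle sum without Tm1, and ScOE 4 had the lowest in ScOE. The log2 fold change of Fas3 was 3.90 without ScOE 3, and the part of muscle RNA in the Fas3 values was not tested.

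cora encodes Coracle, a membrane-cytoskeleton linker of the band 4.1 family known from the pleated septate junction (FBgn0010434, BDGP6 chromosome 2R, 19229063 to 19243751, plus strand). It was at 53.0, 64.2 and 58.1 FPKM in Ctrl and at 62.8, 55.4, 54.0 and 55.5 FPKM in ScOE. The groups overlapped, and the libraries of both stood within 1.21-fold of each other. Its log2 fold change was -0.03 ± 0.12, with a 95% interval from -0.31 to 0.24 (adjusted p = 0.836 in limma). Its sign depended on the scaling between libraries, and with equal FPKM totals it was 0.82 and passed, or 0.14 relative to the median of all genes.

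The adherens junction genes did not pass either. shg, which encodes E-cadherin (FBgn0003391, BDGP6 chromosome 2R, 21049654 to 21057197, minus strand), was at 22.1, 30.4 and 27.3 FPKM in Ctrl. It was at 32.2, 28.8, 23.7 and 38.7 FPKM in ScOE. The groups overlapped, with ScOE 4 the highest library and ScOE 3 below Ctrl 2 and 3. For shg the log2 fold change was 0.20 ± 0.19 (95% interval -0.25 to 0.64, adjusted p = 0.454 in limma). With equal FPKM totals it was 1.03 and passed (adjusted p = 0.0082 in limma), or 0.35 relative to the median of all genes.

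arm encodes Armadillo, which acts both in the adherens junction and as the transcriptional effector of Wingless signalling (FBgn0000117, BDGP6 chromosome X, 1891401 to 1900646, minus strand). Its exons share 82 bp with mRpL16 on the opposite strand, and a strand setting for the read assignment is not given in the sources used here. It was at 147, 94.4 and 84.2 FPKM in Ctrl and at 107, 96.9, 122 and 72.2 FPKM in ScOE. Ctrl 1 was the highest of all libraries and ScOE 4 the lowest, and the groups overlapped. The log2 fold change was -0.11 ± 0.25 (95% interval -0.69 to 0.47, adjusted p = 0.759 in limma), and its sign turned with upper quartile scaling, quantile normalization and equal FPKM totals and without Ctrl 1. The ratio of shg to arm was 0.151, 0.322 and 0.324 in Ctrl and 0.302, 0.297, 0.195 and 0.536 in ScOE. It did not separate the groups (exact permutation p = 0.514).

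Of the 3 genes of the basolateral module, whose proteins act together, scrib passed and dlg1 and l(2)gl did not. dlg1, which encodes the scaffold Discs large (FBgn0001624, BDGP6 chromosome X, 11369665 to 11409776, plus strand), had levels of 20.4, 17.2 and 19.0 FPKM in Ctrl and 17.5, 19.5, 20.0 and 16.5 FPKM in ScOE. The groups overlapped, and the log2 fold change was -0.03 ± 0.12 (95% interval -0.31 to 0.25, adjusted p = 0.845 in limma), with a sign that turned under each of the 4 other scalings.

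scrib encodes the scaffold Scribble (FBgn0263289, BDGP6 chromosome 3R, 26536350 to 26604051, plus strand). It was at 13.6, 20.0 and 19.5 FPKM in Ctrl and at 25.7, 30.7, 28.7 and 25.0 FPKM in ScOE. The groups did not overlap, and scrib rose by a log2 fold change of 0.62 ± 0.16 (adjusted p = 0.0209 in limma). It was higher in ScOE under all 4 other scalings. The call was lost without ScOE 2 (adjusted p = 0.0601 in limma) and without ScOE 3 (adjusted p = 0.0573 in limma).

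l(2)gl encodes Lethal giant larvae, a cytoskeletal protein excluded from the apical domain (FBgn0002121, BDGP6 chromosome 2L, 9839 to 21376, minus strand). Its exons share 83 bp with annotated transposon insertions, on both strands. It was at 128, 219 and 188 FPKM in Ctrl and at 136, 111, 107 and 131 FPKM in ScOE. Ctrl 2 and 3 stood above all ScOE libraries, while Ctrl 1 lay among them. The log2 fold change of -0.52 ± 0.20 did not pass (adjusted p = 0.0776 in limma). Without Ctrl 1 it was -0.75 and passed (adjusted p = 0.011 in limma), and it passed with library weights as well (log2 -0.85, adjusted p = 0.0012 in limma). With equal FPKM totals it was 0.34, or -0.34 relative to the median of all genes.

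**Figure D3:**
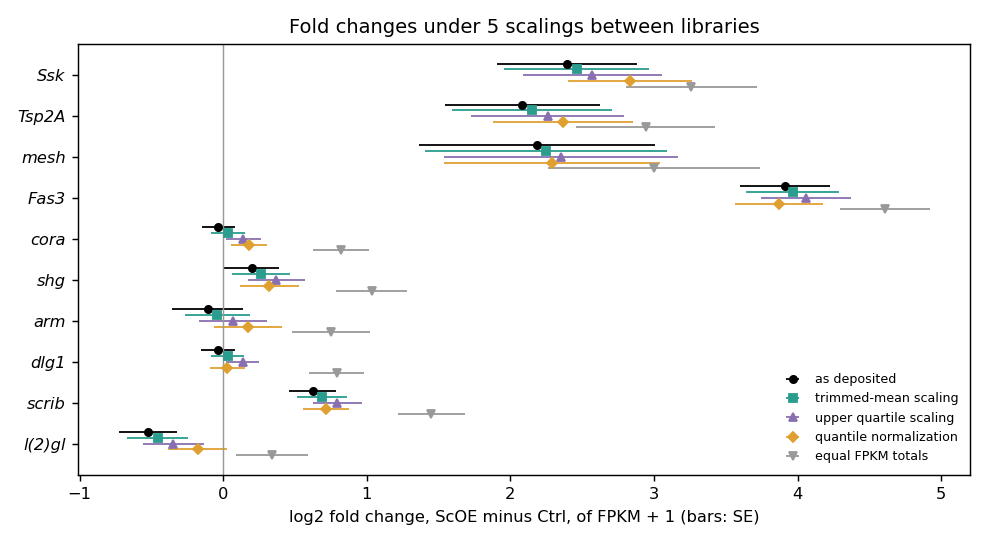
Log2 fold change of each gene, ScOE minus Ctrl on the log2(FPKM + 1) scale, as deposited and under 4 other scalings between libraries; bars are SEs from limma with 3 Ctrl and 4 ScOE libraries. Fas3, Ssk, Tsp2A, mesh and scrib lie above 0 under all 5 scalings, and equal FPKM totals move every gene to the right, as they move the median of all tested genes from -0.08 to 0.68.

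The ratio of scrib to l(2)gl was 0.106, 0.0915 and 0.104 in Ctrl and 0.189, 0.278, 0.268 and 0.190 in ScOE. All ScOE libraries were higher, by 1.15 on the log2 scale (exact two-sided permutation p = 0.0286, the smallest value that 35 splits allow). The ratio of dlg1 to scrib was 1.50, 0.858 and 0.972 in Ctrl and 0.682, 0.635, 0.698 and 0.661 in ScOE. All ScOE libraries were lower, by a difference of -0.66 on the log2 scale (exact permutation p = 0.0286). The ratio of dlg1 to l(2)gl differed by 0.49 and overlapped between the groups (exact permutation p = 0.171). After adjustment over the 7 pairs none passed. The scrib to l(2)gl and dlg1 to scrib ratios, the 2 pairs with an unadjusted p under 0.05, had an adjusted p of 0.1 by the same exact permutation test. Both already had the smallest p that 35 splits allow. With only these 2 of the 7 pairs at that value none could pass, so the adjusted result says little about them.

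**Figure D4:**
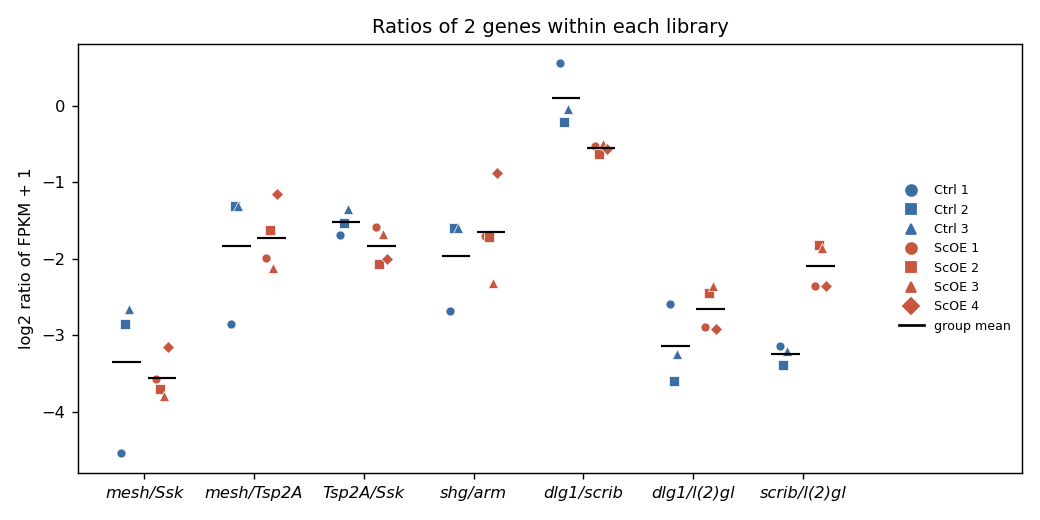
Log2 ratio of FPKM + 1 between 2 genes of the same complex in each library, for 7 pairs, with points shaped by replicate number and black lines at the group means. The scrib to l(2)gl and dlg1 to scrib ratios separate the 4 ScOE from the 3 Ctrl libraries, and the other 5 pairs overlap.

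In Ctrl the 10 genes ranked, from the highest mean, Ssk, l(2)gl, arm, Tsp2A, cora, mesh, shg, dlg1, scrib and Fas3. Neighbours in this order overlapped in their library values except for 2 of 9 pairs, shg above dlg1 and scrib above Fas3. In ScOE the order was Ssk, Tsp2A, l(2)gl, arm, mesh, cora, Fas3, shg, scrib and dlg1. There 3 of 9 neighbouring pairs did not overlap, Ssk above Tsp2A, Tsp2A above l(2)gl and scrib above dlg1. The genes that varied least between libraries of a group were cora and dlg1, with SDs on the log2 scale of 0.136 and 0.117 in Ctrl and 0.0969 and 0.124 in ScOE. Those that varied most in Ctrl were mesh, Tsp2A and Ssk, with SDs of 1.95, 1.17 and 1.00.

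The other genes of these structures were read from 6 lists with 68 genes, of which 55 were tested, 9 rose, 22 fell and 24 did not pass. The shares, 16.4% higher and 40.0% lower, stand beside 17.6% and 21.3% of all tested genes. In the list of other septate junction genes, mostly of the pleated type, 2 of 22 tested genes (9.09%) rose, 12 (54.5%) fell and 8 did not pass, and the median log2 fold change was -0.77 against -0.08 for all tested genes. Those that rose were hoka and bou, a Ly6-family gene needed for septate junctions in other fly epithelia, which went from 5.25 ± 0.283 (SD, n = 3) to 15.5 ± 4.26 FPKM (SD, n = 4; log2 1.37 ± 0.20, adjusted p = 0.00192 in limma). The lipid phosphate phosphatase genes wun2 and wun fell, from 230 ± 77.0 to 28.6 ± 7.81 FPKM (log2 -2.96 ± 0.29) and from 87.4 ± 12.8 to 36.6 ± 3.62 FPKM (log2 -1.23 ± 0.14). Cont, which encodes the adhesion protein Contactin, fell from 17.8 ± 2.81 to 7.10 ± 0.845 FPKM (log2 -1.21 ± 0.15). With equal FPKM totals 6 genes of this list were called higher and 2 lower, where 4454 and 280 of all 8421 tested genes were. The list's median was then -0.01, or -0.69 relative to all genes, as it was at the deposited scale. In that setting wun and Cont kept their direction but lost their calls.

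Of 3 tricellular junction genes, which seal the corners where cells meet, Gli (Gliotactin) rose from 6.50 ± 2.51 to 12.5 ± 2.26 FPKM (log2 0.89 ± 0.24, adjusted p = 0.0252 in limma). That call was lost in 6 of 19 alternatives, among them those without Ctrl 1, Ctrl 2, ScOE 2, ScOE 3 or ScOE 4 (adjusted p 0.0564 to 0.0783 in limma). The gene bark, listed as CG3921, and M6 did not pass, so 33.3% of this list was called higher beside 17.6% of all tested genes.

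Among 11 tested adherens junction genes 3 rose, 3 fell and 5 did not pass, and 9 others, mostly other cadherins, were below the filter. The 27.3% called in each direction stands beside 17.6% higher and 21.3% lower over all tested genes. The catenin gene alpha-Cat rose from 45.8 ± 3.35 to 62.4 ± 3.85 FPKM (log2 0.44 ± 0.11, adjusted p = 0.0163 in limma), a call lost without ScOE 2 (adjusted p = 0.0537 in limma) and without both libraries numbered 1. The LIM-domain gene jub rose from 9.77 ± 0.573 to 13.7 ± 0.433 FPKM (log2 0.45 ± 0.10). CadN, which encodes N-cadherin, was at most 0.133 FPKM in Ctrl and 1.26 to 2.05 FPKM in ScOE, and it passed the filter through its ScOE values alone. Vinc, which encodes the actin-binding protein Vinculin, fell from 105 ± 10.5 to 29.4 ± 7.97 FPKM (log2 -1.83 ± 0.21, adjusted p = 0.00066 in limma). The fall of ed, from 51.0 ± 6.03 to 32.0 ± 0.791 FPKM (log2 -0.65 ± 0.11), and that of cno (log2 -0.67 ± 0.16) turned to 0.20 and 0.0086 with equal FPKM totals. The cno call was also lost without Ctrl 2 (adjusted p = 0.0577 in limma).

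In the apical Crumbs and Par complexes 2 of 7 genes rose, 3 fell and 2 did not pass, or 28.6% higher and 42.9% lower beside 17.6% and 21.3% of all tested genes. crb, which encodes the apical determinant Crumbs, rose from 5.28 ± 0.223 to 8.24 ± 0.302 FPKM (log2 0.56 ± 0.10, adjusted p = 0.00489 in limma), and its partner gene sdt rose from 1.08 ± 0.427 to 2.19 ± 0.343 FPKM (log2 0.63 ± 0.18). The sdt call was lost in 7 of 18 alternatives, among them those without Ctrl 1, Ctrl 2, ScOE 2 or ScOE 3. baz, which encodes the Par complex scaffold Bazooka, fell from 20.2 ± 3.38 to 5.84 ± 0.622 FPKM (log2 -1.62 ± 0.14, adjusted p = 0.00025 in limma). par-6 fell from 27.9 ± 5.48 to 15.8 ± 1.08 FPKM (log2 -0.76 ± 0.15) and veli by a log2 of -0.57 ± 0.18, and both turned above 0 with equal FPKM totals (0.07 and 0.28). The veli call was also lost without any 1 of the 7 libraries.

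Of 9 genes that link junctions to the membrane skeleton 1 rose, 4 fell and 4 did not pass, or 11.1% higher and 44.4% lower beside the same 17.6% and 21.3%. The spectrin gene kst fell from 28.4 ± 5.37 to 12.1 ± 1.64 FPKM (log2 -1.16 ± 0.17, adjusted p = 0.00181 in limma) and Moe, which encodes Moesin, from 171 ± 40.7 to 91.4 ± 12.6 FPKM (log2 -0.88 ± 0.19). The FERM-domain gene ex was at 1.66 to 2.36 FPKM in Ctrl and 0.521 to 0.858 FPKM in ScOE (log2 -0.76 ± 0.15), and it passed the filter through its Ctrl values alone. The adducin gene hts rose by a log2 of 0.52 ± 0.15, a call lost in 8 of 19 alternatives, among them those without Ctrl 1, Ctrl 3, ScOE 1, ScOE 2 or ScOE 4. With equal FPKM totals none of the 9 was called lower, where only 280 of all 8421 tested genes were. None of the 3 tested innexins, the gap junction channel genes, passed in limma. Inx3 came nearest, at 119 to 133 FPKM in Ctrl and 140 to 193 FPKM in ScOE.

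**Figure D5:**
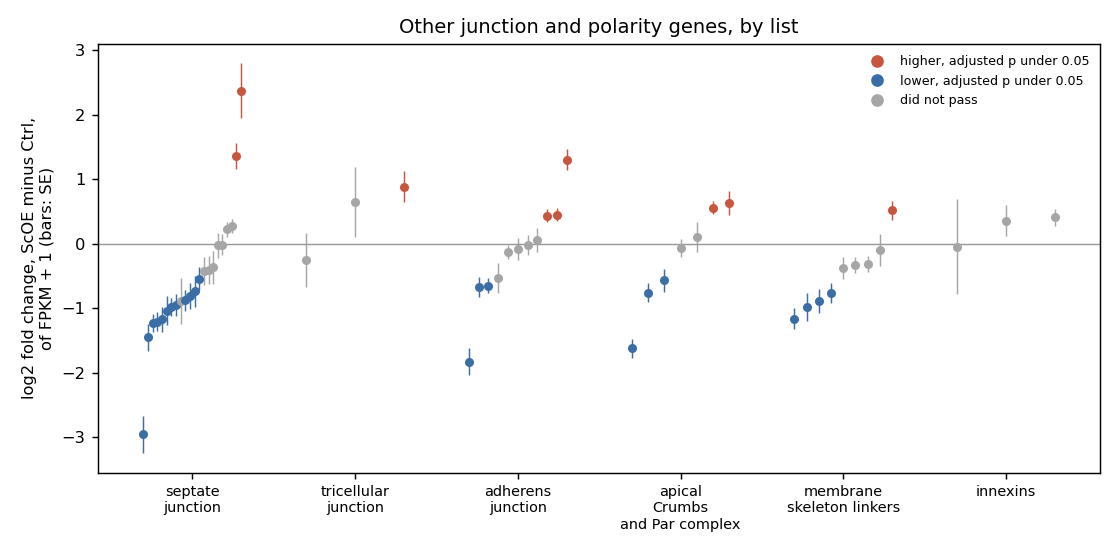
Log2 fold change, ScOE minus Ctrl on the log2(FPKM + 1) scale, of each tested gene in 6 lists of junction and polarity genes outside the 10 members; bars are SEs from limma and colours mark the call at an adjusted p under 0.05. In the septate junction list 12 of 22 genes are called lower and 2 higher, and in the innexin list none is called.

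The tested genes whose values over the 7 libraries followed a member most closely were taken for mesh, Fas3 and shg. For mesh they were CG5819, CG32137 and CG10650, with Pearson correlations of log2(FPKM + 1) of 0.995, 0.994 and 0.993. For Fas3 they were ASPP, tap and hng2, at 0.999, 0.998 and 0.996. The transcription factor gene tap had a mean of 0.405 FPKM in Ctrl and 12.2 FPKM in ScOE. For shg they were Atg17, Bsg25D and CG9917, at 0.965, 0.959 and 0.953. A correlation above 0.9 was reached by 145 genes for mesh, 869 for Fas3 and 26 for shg, and these values describe 7 libraries that share the division into Ctrl and ScOE.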

How the data were processed

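The deposited values were FPKM for 17481 genes in 7 libraries, made by the authors. Per the submitters' processing notes, TopHat2 2.0.10, Cufflinks 2.2.1 and the build BDGP6 were used; the strand setting and any scaling between libraries are not given in the sources used here. Per the labels' protocols, RNA was amplified before sequencing. FPKM keeps no read numbers, so intervals from counts could not be given.

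From these values, log2(FPKM + 1) was tested in limma 3.58.1 (R 4.3.3) with a variance trend, over genes that reached 1 FPKM in 3 or more libraries, with Benjamini-Hochberg adjustment over all tested genes. Ratios were compared by exact permutation over 35 splits. Alternatives were pseudocounts, filters, scalings, no variance trend, library weights, a replicate block and each library left out; leaving out both libraries numbered 1 was added after the data were seen. The 10 members and the lists were chosen with earlier results of these data known. All 10 members are named; of each list up to 3 rising and 3 falling genes with the smallest adjusted p are named, and for mesh, Fas3 and shg the 3 genes with the highest correlation, small non-coding RNAs passed over. Other names, such as Inx3, bark and M6, were chosen after their values were seen. Of the marker lists, hemocyte (1 of 5 tested, it fell), trachea (1 of 4, it fell) and neuron and glia (4 of 5 tested, 3 rose, 1 fell) are given here alone. Of the 3 that rose, brp passed the filter through its ScOE values alone. It was at most 0.278 FPKM in Ctrl and 1.96 to 2.92 FPKM in ScOE. Over all tested genes 17.6% were called higher and 21.3% lower. Coordinates are 1-based, from the Ensembl annotation of BDGP6. Plots used matplotlib 3.10.9 and Python 3.11.15.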

Additional observations from a re-analysis of the deposited data

Results flagged for a closer look

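In the 4 ScOE libraries 2 genes had a library that stood apart from the other 3. cora was at 62.8 FPKM in ScOE 1 against 54.0 to 55.5 FPKM in the others. veli was at 23.4 FPKM in ScOE 4 against 31.8 to 33.0 FPKM in the others. Chance flags about 1 in 20 groups, and 45 groups of 4 were examined.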

How the results depend on the processing

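The number of members called, 4 as reported, was 9 with equal FPKM totals, where cora, dlg1, shg, arm and mesh also passed as higher. In that setting 4454 of all 8421 tested genes were called higher and 280 lower. With 1 library left out 2 to 5 members were called, and the 2 were Ssk and Fas3, without ScOE 3. Ssk and Fas3 kept their calls under all 19 alternatives. The number of genes called overall was 2480 to 4840 (3280 as reported), and that over the 6 lists 21 to 39 (31 as reported). Genes near 0 changed sign. cora was at 0.14, 0.033, 0.18 and 0.82 with upper quartile scaling, trimmed-mean scaling, quantile normalization and equal FPKM totals, and at -0.10 to 0.034 with 1 library left out. dlg1 was at 0.14, 0.031, 0.030 and 0.79 in the same settings, 0.11 with library weights, 0.042 without both libraries numbered 1 and -0.10 to 0.021 with 1 left out. arm was at 0.069, 0.17 and 0.75 with upper quartile scaling, quantile normalization and equal totals, 0.12 with library weights, 0.087 without both libraries numbered 1 and -0.27 to 0.13 with 1 left out. shg was at -0.061 with library weights. With equal totals l(2)gl was at 0.34, ed at 0.20, cno at 0.0086, par-6 at 0.066 and veli at 0.28; that setting moves all genes together, since a library's sum is its divisor. The difference between groups, ScOE minus Ctrl, in the log2 ratio of mesh to Tsp2A was -0.17 with a pseudocount of 5 and -0.41 to 0.36 with 1 library left out, that of mesh to Ssk -0.80 to 0.14 and that of shg to arm -0.054 to 0.53; with 6 libraries the smallest exact permutation p is 0.0667 or 0.1, so no pair could pass there. The cause of the other changes was not tested. By the depths estimated from the lowest values, Ctrl libraries were the shallower ones, which would limit the precision of low Ctrl values such as those of Fas3 and CadN.

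With the replicate number as a block, 2540 genes and 4 members were called, dlg1 was at 0.013 and arm at 0.035. No Ctrl library carries the number of ScOE 4, so ScOE 4 adds nothing to the comparison in this setting. The log2 fold changes of the members under the block equal those without ScOE 4. Same-numbered libraries did not deviate together throughout: their correlations were 0.52, -0.04 and 0.08 for numbers 1, 2 and 3, so the numbers were not taken as pairs. Of the listed genes 10 lost their calls under the block, sinu, kune, Tsf2, alpha-Cat, cno, jub, sdt, veli, kibra and hts, and none gained one.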
